A study of Mus musculus with 12 samples.

Results

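Chromatin accessibility, measured by ATAC-seq as the sites where a transposase can cut, was compared between 2 libraries of microglia from 3-month-old mice injected with LPS and 2 libraries from 3-month-old mice injected with PBS. Merging the peaks of the 4 lists wherever they overlapped by 1 bp or more gave 44503 regions. A region was called gained if both LPS lists and neither PBS list held a peak in it, and lost if both PBS lists and neither LPS list did. By this rule 2959 regions were gained (6.65% of the 44503) and 1281 were lost (2.88%), so the response comprised 4240 regions. A further 30767 regions held a peak in all 4 lists.

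The mice were wild-type C57BL/6J females that received LPS, a component of bacterial membranes, or PBS as the vehicle into the peritoneum. Each library pooled microglia of 2 to 3 mice, so the spread within a group is a spread between pools. Microglia were isolated from the brain by cell sorting in the account of the study, but the deposited protocol starts in part from frozen tissue and its nuclei, and which of them applies is unsettled. The series holds 12 such libraries in all, 2 for each treatment at 3, 14 and 24 months, and the 8 older libraries serve below only as samples that the choice of the regions did not use. The question was how the chromatin of microglia reacts to an inflammatory stimulus in the periphery.

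LPS is sensed by Toll-like receptor 4 with its co-receptor CD14. The adaptor MyD88 leads from there to NF-κB and to the kinases that activate AP-1, whereas the adaptor TRIF leads to interferon regulatory factors, interferon and STAT proteins. Part of the genes switched on by these factors encode brakes on the same signals, such as the inhibitor of NF-κB encoded by Nfkbia and the cytokine signalling inhibitor encoded by Socs3. Resting microglia keep a separate set of regulatory regions open, bound by the lineage factor PU.1 and by MAF and SALL1, near genes such as P2ry12, Tmem119, Siglech and Gpr34 that distinguish microglia from other macrophages.

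The regions printed here are a selection of gained regions near genes of the response and of lost regions near genes of resting microglia, each shown as the 201 bases of the mm10 genome centred on the peak summit, on the forward strand. For each gene the region with the largest peaks is shown, and for Tmem119 the next as well. The genes were chosen with their values known, larger regions near other genes are not shown, and windows that touch an exon were left out. Capitals mark letters that match a motif on either strand. The motifs were AP-1 (TGANTCA), CRE (TGACGTCA), STAT (TTCNNNGAA), C/EBP (TTGCNNAA), ISRE (GAAANNGAAA), PU.1 (GNGGAAGT), MAF (TGCTGAC), RUNX (TGTGGTT), EGR (GCGTGGGCG), GRE (GNACANNNTGTNC), SP1 (GGGGCGGGG), and the consensus sequences of NF-κB, MEF2 and CTCF. The gained regions follow first.
Pgs1, chr11:117990022-117990222: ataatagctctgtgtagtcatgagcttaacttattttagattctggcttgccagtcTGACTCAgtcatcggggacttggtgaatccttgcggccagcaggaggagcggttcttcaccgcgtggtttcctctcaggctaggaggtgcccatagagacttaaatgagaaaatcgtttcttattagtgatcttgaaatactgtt
Socs3, chr11:117962286-117962486: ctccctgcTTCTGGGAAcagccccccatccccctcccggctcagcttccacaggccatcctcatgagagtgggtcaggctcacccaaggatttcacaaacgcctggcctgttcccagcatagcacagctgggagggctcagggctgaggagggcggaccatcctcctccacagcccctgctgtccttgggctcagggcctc
Arid5a, chr1:36303518-36303718: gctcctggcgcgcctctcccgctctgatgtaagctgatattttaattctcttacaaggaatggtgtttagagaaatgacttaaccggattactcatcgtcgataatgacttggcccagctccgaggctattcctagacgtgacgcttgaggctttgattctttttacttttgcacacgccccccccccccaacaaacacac
Cflar, chr1:58722167-58722367: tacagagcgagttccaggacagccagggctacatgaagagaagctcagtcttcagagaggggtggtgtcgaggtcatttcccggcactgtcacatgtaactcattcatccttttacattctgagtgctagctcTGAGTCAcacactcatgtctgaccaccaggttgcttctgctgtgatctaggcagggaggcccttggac
Il1rn, chr2:24341501-24341701: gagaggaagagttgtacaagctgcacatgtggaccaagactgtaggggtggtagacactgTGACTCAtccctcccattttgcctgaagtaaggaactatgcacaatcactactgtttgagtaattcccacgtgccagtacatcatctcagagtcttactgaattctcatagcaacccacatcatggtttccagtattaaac
Nfkbia, chr12:55473902-55474102: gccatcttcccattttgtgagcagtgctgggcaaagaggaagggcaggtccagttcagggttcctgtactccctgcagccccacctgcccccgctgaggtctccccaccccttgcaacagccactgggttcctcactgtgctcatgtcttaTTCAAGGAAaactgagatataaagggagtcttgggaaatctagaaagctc
Cd83, chr13:43775343-43775543: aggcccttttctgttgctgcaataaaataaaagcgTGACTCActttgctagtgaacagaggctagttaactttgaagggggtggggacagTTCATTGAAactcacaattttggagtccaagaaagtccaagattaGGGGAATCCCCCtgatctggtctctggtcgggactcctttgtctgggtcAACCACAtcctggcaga

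The window in the first intron of Pgs1, a gene of phospholipid synthesis beside Socs3, and the windows at Cflar, which encodes an inhibitor of caspase activation, and Il1rn, which encodes the antagonist of the interleukin-1 receptor, each held a single AP-1 match. The windows downstream of Socs3 and of Nfkbia each held a single STAT match. The window near Cd83, a surface marker of activated antigen-presenting cells, held matches to AP-1, STAT, RUNX and NF-κB, the last in 3 overlapping positions of the same run of letters. The window near Arid5a, which encodes an RNA-binding protein that stabilizes inflammatory transcripts, held no match to any of the 14 motifs. The lost regions were the following.
Siglech, chr7:55744679-55744879: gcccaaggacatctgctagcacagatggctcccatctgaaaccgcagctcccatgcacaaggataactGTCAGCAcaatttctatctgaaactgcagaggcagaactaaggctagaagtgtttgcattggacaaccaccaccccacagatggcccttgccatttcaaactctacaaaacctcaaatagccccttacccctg
Gpr34, chrX:13618632-13618832: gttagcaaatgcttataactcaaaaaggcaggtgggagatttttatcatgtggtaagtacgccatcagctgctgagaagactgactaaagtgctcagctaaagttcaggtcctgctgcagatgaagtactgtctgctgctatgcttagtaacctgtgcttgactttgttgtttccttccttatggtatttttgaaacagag
Rhob, chr12:8493535-8493735: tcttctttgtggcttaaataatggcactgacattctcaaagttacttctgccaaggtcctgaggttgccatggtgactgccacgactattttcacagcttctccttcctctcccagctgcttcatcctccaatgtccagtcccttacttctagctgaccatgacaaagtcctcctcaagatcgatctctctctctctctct
Tmem119 first intron, chr5:113796787-113796987: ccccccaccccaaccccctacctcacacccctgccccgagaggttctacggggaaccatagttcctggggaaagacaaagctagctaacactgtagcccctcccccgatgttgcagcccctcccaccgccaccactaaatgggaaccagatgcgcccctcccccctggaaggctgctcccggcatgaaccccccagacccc
Tmem119 downstream, chr5:113793223-113793423: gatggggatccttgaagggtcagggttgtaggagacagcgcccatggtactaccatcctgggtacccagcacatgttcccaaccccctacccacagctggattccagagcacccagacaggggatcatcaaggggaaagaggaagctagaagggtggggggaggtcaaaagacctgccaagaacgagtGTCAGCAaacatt

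Of these windows, the region upstream of Siglech, a sialic acid receptor of microglia, and the region downstream of Tmem119 each held a MAF match and nothing else. The windows at Gpr34, Rhob and the first intron of Tmem119 held no match. Over all windows of this length, 31.6% of the gained regions, 3.83% of the lost regions and 10.4% of all 44503 regions held an AP-1 match. A STAT match was present in 9.97%, 3.20% and 5.75% and an NF-κB match in 5.88%, 2.81% and 4.67%, in the same order. A MAF match was present in 5.85% of the gained, 8.12% of the lost and 5.77% of all regions. A match describes letters, and binding of a factor was not measured.

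The LPS lists held 39464 and 38569 peaks and covered 18.2 and 17.4 Mb, and the PBS lists held 35573 and 38261 peaks and covered 15.1 and 17.1 Mb. The difference of 2100 peaks between the group means (39017 ± 633 against 36917 ± 1901, SD, n = 2) gave p = 0.333 in a two-sided exact permutation test, the smallest that 2 against 2 libraries allow. The lists hold no read counts, so the depth is unknown, and a region without a peak may be open below the caller's threshold. The lists of a group overlapped more than lists of different groups, with a Jaccard index of regions of 0.870 within LPS and 0.866 within PBS against 0.778 to 0.796 across. No region was tested on its own at 3 months, and the gained and lost regions are a description of these 4 lists.

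The balance of gained and lost regions depended on the length of the lists. As deposited, 69.8% of the changed regions were gained. When each list was cut to the 35538 peaks of largest area, 2362 regions were gained and 1889 lost, so that 55.6% of the changed regions were gained. Of the regions gained with the full lists 67.6% were gained again, and of those lost 80.02% were lost again. Leaving out 1 library at a time gave 3377 to 4602 gained and 1726 to 2950 lost regions, since a group of 1 list asks for agreement of fewer lists. Gained regions numbered 4461 without the second LPS and 4602 without the second PBS library, and lost regions 2350 without the first LPS and 2950 without the first PBS library. The split moved to 53.4% gained without the first PBS library, which has the shortest list, and to 72.7% without the second.

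Most changed regions held modest peaks. The strength of a peak is given here as the percentile of its area within its own list, with the largest area at 100, and a region with several peaks takes the largest. The mean percentile of the 2 lists that called a gained region had a median of 20.9 and ranged from 0.267 to 91.9, and 262 gained regions reached the 50th percentile. Lost regions had a median of 13.8, ranged from 0.324 to 74.5, and 14 reached the 50th percentile. Just outside the rule, 2042 regions were called in both LPS lists and 1 PBS list, and that single PBS peak had a median percentile of 9.79. Another 1537 were called in both PBS lists and 1 LPS list, and the single LPS peak had a median percentile of 9.79 too. With a minimum peak area of 400, 2109 regions were gained and 887 lost, but only 607 of the 2959 and 55 of the 1281 were among them.

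The largest gained regions were taken among those whose nearest start site was that of a protein-coding gene within 100 kb. The 12 largest of these lay near 12 different genes, led by Pgs1, Arid5a and Socs3. The Pgs1 intron region (chr11:117989430-117990452) held peaks at the percentiles 91.0 and 92.8 of the LPS lists. The Arid5a region (chr1:36303210-36304129), 4.14 kb from the start site, stood at 91.1 and 90.9. The Socs3 region (chr11:117961957-117963011), 6.80 kb downstream of the start site, stood at 84.4 and 85.6. All 3 were therefore among the largest peaks of both LPS lists while both PBS lists held none. The Socs3 region ends less than 150 bp from a region called in all 4 lists (chr11:117963139-117966045). That neighbour stood at 99.97 and 99.97 with LPS and at 94.4 and 95.1 with PBS. With peaks merged across 150 bp the 2 regions become 1, which is not gained.

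The Cflar region in the first intron stood at 82.1 and 83.1 and a region near St3gal4, a sialyltransferase gene, at 78.2 and 79.4. A region in the 3′ UTR of Bmf, which encodes a protein that promotes apoptosis, stood at 79.3 and 76.1, and a region in an intron of Bcl2l1, which encodes the survival protein BCL-XL, at 71.1 and 77.5. The promoter of Ptgs2 (chr1:150099603-150100378), the gene of the inducible cyclooxygenase COX-2, was gained at 73.1 and 78.0. Ndel1, Nsmce1, Mgme1 and Fgd2 completed these 12 gained regions.

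Of the gained regions at promoters, taken as within 1 kb of a start site, the pair at Mt2 was among the largest. Mt2 encodes a metallothionein, a small protein that binds zinc and copper and is induced by metals, stress hormones and inflammation. The region 0.883 kb from the start site stood at 73.4 and 60.7 in the LPS lists and the region at the start site at 68.5 and 61.4. The promoter of the neighbouring Mt1 held a peak in all 4 lists, at 97.3 and 97.4 with LPS and 90.6 and 91.0 with PBS. A region at the promoter of Ikbke, which encodes a kinase of the interferon branch, was gained at 62.2 and 64.6.

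**Figure D1:**
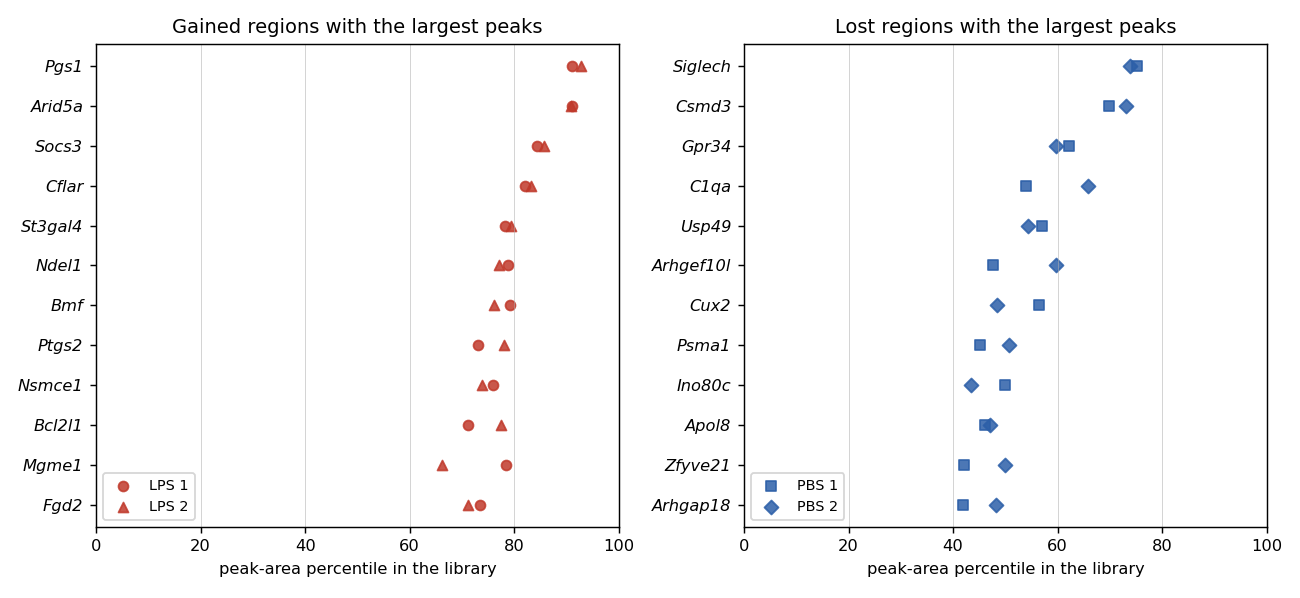
Percentile of the peak area within its own list for the 12 gained regions (left, LPS libraries) and the 12 lost regions (right, PBS libraries) with the largest peaks. Only regions whose nearest start site was that of a protein-coding gene within 100 kb were ranked, and they are named by it. Each point is 1 library. The gained regions run from Pgs1 at 91.0 and 92.8 down to Fgd2 at 73.4 and 71.2, and the lost regions from Siglech at 75.2 and 73.8 down to Arhgap18 at 42.0 and 48.2; the other group held no peak in any of them.

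With the same limit to protein-coding genes within 100 kb, the 12 lost regions with the largest peaks lay near Siglech, Csmd3, Gpr34, C1qa, Usp49, Arhgef10l, Cux2, Psma1, Ino80c, Apol8, Zfyve21 and Arhgap18. The region 23.4 kb upstream of Siglech (chr7:55744324-55745174) held peaks at the percentiles 75.2 and 73.8 of the PBS lists and none with LPS. A region 13.4 kb upstream of Gpr34 (chrX:13618525-13618985) and within an intron of Cask stood at 62.1 and 59.7. A region in an intron of C1qa, which encodes a chain of the complement component C1q, stood at 54.0 and 65.8. A region 46.2 kb from Csmd3 and a region 35.2 kb from the proteasome subunit gene Psma1 were lost as well, at 69.8 and 73.0 and at 45.1 and 50.8.

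Fewer regions at promoters were lost than gained. Promoters made up 15.2% of the gained regions (449), 7.10% of the lost regions (91) and 30.7% of all regions (13661). The lost promoter regions with the largest peaks included those of Smox, a spermine oxidase gene, at 37.9 and 49.6, Runx1t1, which encodes a transcriptional repressor, at 32.6 and 45.1, and Hhex, a homeobox gene, at 37.0 and 36.1. A region at a promoter of the purinergic receptor gene P2ry12 stood at 18.2 and 40.3, and the promoter of Gpr34 at 20.8 and 27.3. Hhex and P2ry12 had a peak within 1 kb of a start site in all 4 lists, so other promoter peaks of these genes stayed with LPS. Whether Smox and Runx1t1 also kept one was not examined. With lists of equal length promoters made up 16.1% of the gained and 8.999% of the lost regions, and counting only start sites of protein-coding genes 11.4% and 4.22%.

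Gained regions lay a median of 7.80 kb from the nearest start site, lost regions 13.4 kb and all regions 4.99 kb. Introns held 24.3% of the gained regions in the first and 22.6% in a later position, against 23.0% and 33.1% of the lost regions. Over all regions the shares were 17.8% and 21.5%. The median width was 313 bp for gained, 263 bp for lost and 397 bp for all regions. The gained regions had 2481 different nearest genes and the lost regions 1169, so most genes had a single changed region.

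Gained regions stood together more often than lost regions. With gained regions chained when they lay within 50 kb of each other, they formed 2207 loci, among them 155 of 3 or more regions, and 42.8% of the gained regions had a gained neighbour in this sense. The lost regions formed 1132 loci, 19 of them of 3 or more, with 21.5% in a group. The lost set is smaller, which by itself leaves fewer neighbours, and the difference was not tested. The largest groups held 7 gained regions, at Sh2b2 and Cux1 (chr5:136394594-136532370), at the chemokine genes Ccl2, Ccl7, Ccl11 and Ccl12 (chr11:82015079-82105043), and at Pik3ap1 and Tm9sf3 (chr19:41274572-41371670). Groups of 6 lay downstream of Cebpb, near Id1 and Bcl2l1, near Capza2, and from Nsmce1 over Il4ra to Il21r.

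The counts at single loci stand beside 6.65% gained and 2.88% lost over all regions. Of all regions in all 4 lists, 31.5% ranked higher and 27.7% lower with LPS. At the Socs3 locus, 5 of the 23 regions in a window of 97.9 kb were gained and none was lost. Of the 17 regions called in all 4 lists, 12 had both LPS percentiles above both PBS percentiles and 4 had both below. The promoter peak stood at 99.9 and 99.9 with LPS and at 96.3 and 96.8 with PBS. A region 14.9 kb downstream stood at 41.6 and 44.2 against 8.24 and 8.04, and a region 10.4 kb upstream, next to Pgs1, at 71.6 and 72.0 against 13.7 and 34.0. The gained regions therefore lay among constitutive regions that ranked higher with LPS on both sides of the gene.

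Cebpb encodes the transcription factor C/EBPβ, which takes part in the acute-phase response. Its promoter stood at 99.4 and 98.8 with LPS and at 93.4 and 94.4 with PBS. Downstream of it, 6 gained regions lay between 26.2 and 81.1 kb from the start site (chr2:167715028-167770132), the largest at 53.6 and 46.8, where the non-coding gene Gm14321 has the nearest start site for 5 of them. Between them a region 76.5 kb downstream, called in all 4 lists, stood at 79.1 and 78.4 against 19.7 and 11.5. In the whole window of 161.5 kb, 8 of 31 regions were gained, none was lost and 11 of 18 constitutive regions ranked higher with LPS.

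At the Ccl2 to Ccl12 cluster the promoter of Ccl2, a chemokine that attracts monocytes, did not separate the groups, at 89.7 and 91.9 with LPS and 90.7 and 91.8 with PBS. The promoter of Ccl12 stood at 99.1 and 99.2 against 95.1 and 96.5, and the promoter of Ccl7 was gained with weak peaks at 24.8 and 5.91. At the other chemokine cluster on the same chromosome, the promoter of Ccl4 stood at 92.8 and 94.7 against 80.2 and 83.2, and a region 3.33 kb downstream of its start site was gained at 39.6 and 52.7. The promoter of Ccl5, a chemokine of T cells and macrophages, was gained at 45.3 and 43.6.

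Gained regions and none that were lost were also found at Jdp2 and Batf, Nfkbia, Tnfaip3 and Stat3. Across Jdp2 and Batf, which both encode basic leucine zipper proteins, 10 of 22 regions were gained and none was lost, and 8 of the 9 constitutive regions ranked higher with LPS. The Batf promoter stood at 62.7 and 57.8 with LPS and 26.7 and 24.7 with PBS. At Nfkbia, the promoter was near the top of every list (99.9 and 99.9 against 99.8 and 99.8), and 3 regions between 18.6 and 26.2 kb downstream were gained, the largest at 54.1 and 50.8. At Tnfaip3, which encodes the ubiquitin-editing enzyme A20, 5 of 22 regions were gained, the nearest 62.8 kb from its start site. A region 12.8 kb upstream of Stat3 was gained at 71.7 and 69.8, whereas its promoter stood at 99.7 and 99.7 against 99.4 and 99.4.

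At Gpr34, 2 of 9 regions were lost, its promoter among them, and a region 25.2 kb upstream stood at 2.51 and 11.8 with LPS against 60.2 and 65.7 with PBS. A region 3.81 kb downstream of its start site stood at 21.2 and 23.2 against 51.6 and 45.1. Of the 5 constitutive regions at Gpr34, 3 ranked lower with LPS and 1 ranked higher. At Siglech, 1 of 7 regions was lost and 4 of 5 constitutive regions ranked lower with LPS, among them the promoter at 62.2 and 62.7 against 86.6 and 87.6. No region of either locus was gained.

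At Rhob, which encodes a small GTPase of the cytoskeleton, 4 regions between 4.91 and 17.6 kb downstream were lost (chr12:8482298-8495710). The region nearest to them on the side of the gene, 3.49 kb downstream, stood at 69.8 and 63.8 with LPS and at 98.9 and 98.9 with PBS, and the promoter was at the top of all 4 lists. The lost region nearest to the gene held peaks at 6.78 and 69.7 of the PBS lists, so the PBS libraries differed widely there. A region 9.87 kb upstream of Rhob, nearer to the start site of 5033421B08Rik, was gained at 57.8 and 58.8.

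At Tmem119, whose protein marks microglia among brain macrophages, 3 regions within 7.71 kb downstream of the start site were lost, the largest in the first intron at 41.9 and 34.5. Its promoter stood at 78.8 and 76.7 with LPS and 85.9 and 87.0 with PBS, and a region 9.83 kb downstream ranked higher with LPS (37.6 and 37.8 against 16.6 and 19.4). Maf, which encodes a transcription factor of resting macrophages, had 4 lost regions between 71.5 and 110 kb downstream (chr8:115597110-115635681). The nearest start site of these 4 was that of Gm23677, and 1 of the 21 regions in the window of 524.9 kb was gained. The Maf promoter stood at 92.0 and 92.1 against 98.5 and 98.6. At Sall1, a zinc finger factor gene of microglia, 3 of 18 regions were lost, all weak, and a region 90.1 kb upstream stood at 64.1 and 24.2 against 76.1 and 77.6. The promoter of the fractalkine receptor gene Cx3cr1 stood at 83.2 and 88.4 against 94.6 and 94.9, but over its locus 3 regions were gained and 1 was lost, and 10 of 20 constitutive regions ranked higher with LPS and 6 lower.

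**Figure D2:**
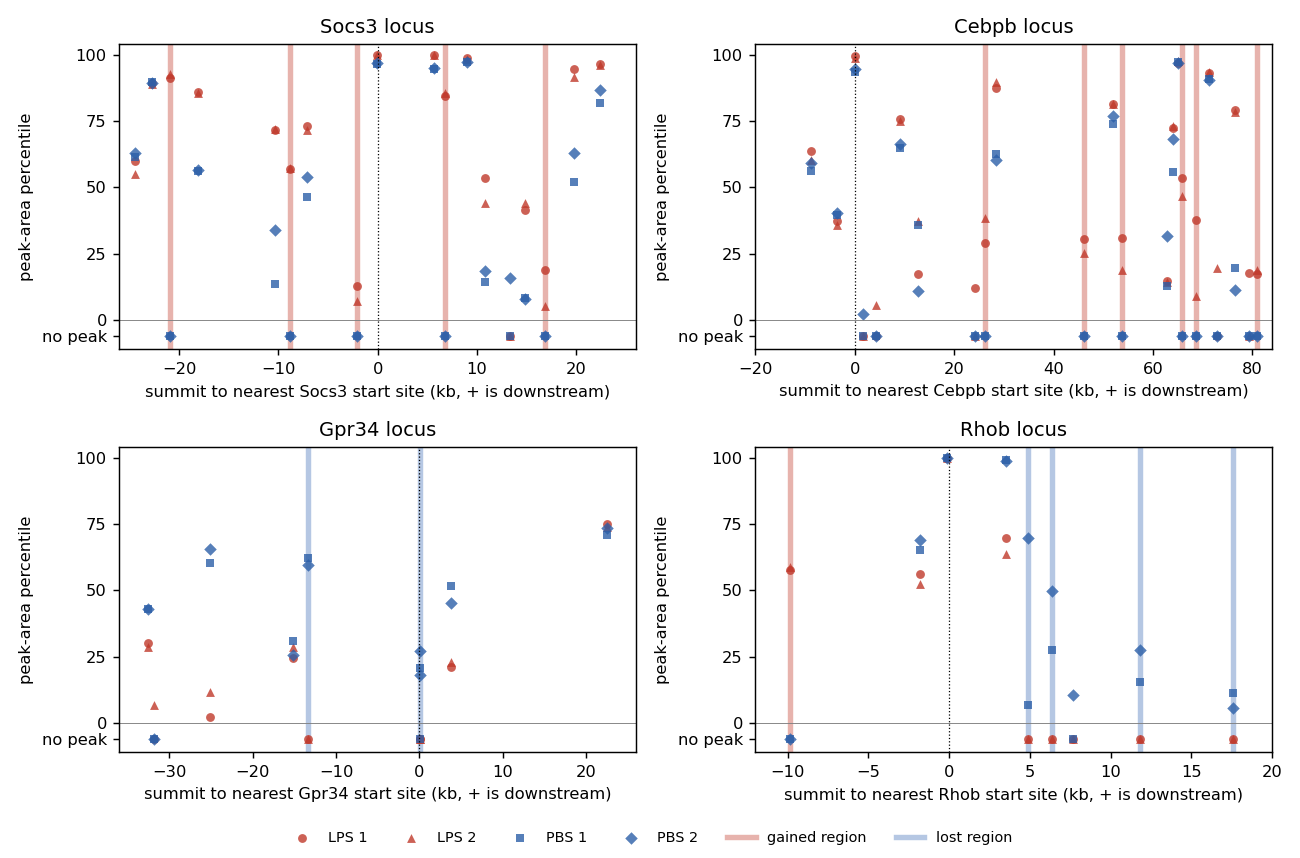
Peak-area percentile of every region at 4 loci in each of the 4 libraries of 3-month-old mice, against the distance in kb of the region's summit from the nearest start site of the named gene; points at the bottom mark libraries without a peak, and red and blue bands mark gained and lost regions. At Socs3 and Cebpb gained regions lie among regions where LPS mostly stands higher, such as the one 76.5 kb downstream of Cebpb at 79.1 and 78.4 against 19.7 and 11.5. At Gpr34 and Rhob the lost regions lie among regions where LPS mostly stands lower. The Rhob panel also holds 1 gained region, upstream of the gene.

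Of the 30767 regions called in all 4 lists, 9687 (31.5%) had both LPS percentiles above both PBS percentiles and 8529 (27.7%) had both below. The balance between them turned over with the length of the lists, with 7304 above and 10804 below after cutting to equal length, and with 12235 and 12642 without the first LPS and 12346 and 13433 without the first PBS library, so neither direction can be said to prevail. The regions with the largest differences, named here for that difference, are a description. A region in the first intron of Pdpn, the podoplanin gene, stood at 86.5 and 91.1 with LPS and 16.2 and 21.6 with PBS. A region in Myo1e, a myosin gene, stood at 94.8 and 95.7 against 27.6 and 30.7.

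A region near the purinergic receptor gene P2ry2 stood at 71.9 and 70.9 with LPS and 5.84 and 4.88 with PBS. A region near Slc2a1, the gene of the glucose transporter GLUT1, stood at 69.5 and 75.01 against 8.36 and 6.98. A region in the first intron of Bhlhe40, which encodes a transcription factor of activated macrophages, stood at 65.4 and 96.3 against 11.1 and 2.45, so the LPS libraries differed widely there. The largest difference in the other direction was the Gpr34 region described above.

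A region in the first intron of Rtn4rl1, a Nogo receptor family gene, stood at 25.5 and 10.8 with LPS and 69.3 and 75.2 with PBS, and a region near Pak6, a kinase gene, at 19.0 and 18.1 against 71.5 and 69.9. A region near Psma1, 15.4 kb from its start site, stood at 23.1 and 25.9 against 70.0 and 76.2, an order that turned over when area was divided by width (10.6 points higher with LPS). With lists of equal length, 14 of the 20 named regions of this kind could be measured in all 4 lists and all 14 kept their order. With area divided by width 17 of the 20 kept it, the exceptions being Psma1, Nos1ap and Slc52a3.

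Genes of the pathway were read as lists, each region counted for the gene with the nearest start site, and each list set beside the share over all regions. Of all regions called in all 4 lists, 31.5% ranked higher and 27.7% lower with LPS. For 29 genes of Toll-like receptor 4 signalling, 7 of 88 regions were gained (7.95%) and 3 were lost (3.41%), close to the 6.65% and 2.88% of all regions. The gained regions included 1 in the first intron of Tlr4 itself, at 40.1 and 38.01, and 1 at the promoter of the kinase gene Tbk1, at 32.9 and 30.1. The 2 lost regions of Irf5, an interferon regulatory factor gene, were weak, at 16.3 and 2.94 and at 9.02 and 2.21, and the last lost region lay at Mapk14. Promoters of 28 of the 29 genes, that of Tbk1 among them, held a peak in each of the 4 libraries.

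For 39 genes of inflammatory cytokines, chemokines and effectors, 19 of 116 regions were gained (16.4%) and 1 was lost, at Cd44. Over the regions in all 4 lists the median difference of LPS and PBS percentiles was 4.66 points, against 0.223 over all regions. The gained regions belonged to 15 genes, among them Ptgs2, Cd83 at 60.2 and 67.0, Ccl4, Ccl5, Il1a at 47.3 and 33.6 and the promoter of Il23a at 39.2 and 35.9. Promoters with a peak numbered 27 and 27 of 39 with LPS and 20 and 21 with PBS. Other lists also had more with LPS, such as the interferon response with 28 and 28 of 37 against 24 and 24. Lineage transcription factors had 22 of 24 in each library. The share over all genes was not examined. In lists of equal length 13 of 112 regions were gained (11.6% against 5.69% of all regions).

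For a list of 32 genes drawn up for the restraint of inflammatory signalling, 26 of 160 regions were gained (16.3%) and 1 was lost. Of the 101 regions in all 4 lists 70 (69.3%) ranked higher with LPS and 13 lower, with a median difference of 3.63 points. The list counts Arid5a, whose protein stabilizes inflammatory transcripts, so 1 of the 26 gained regions does not stand for restraint. Besides Socs3 and Nfkbia, the gained regions included Dusp2, a phosphatase gene that switches off MAP kinases, at 71.5 and 69.1, and the first intron of Il1rn at 49.9 and 53.4. A region in the first intron of Tnip1, whose protein works with A20, was gained at 46.3 and 43.6. A region at the promoter of Cish, a relative of Socs3, was gained at 39.4 and 32.3, but Cish also had a promoter peak in all 4 lists. A weak region in Ptpn1, a tyrosine phosphatase gene, was lost at 1.59 and 12.2 while 2 other Ptpn1 regions were gained. With lists of equal length 26 of 153 regions of this list were gained.

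For 37 genes of the interferon response, 6 of 59 regions were gained (10.2%) and none was lost, and 5 of the 6 lay at promoters. These belonged to Irgm1, a GTPase gene of defence within cells, at 58.0 and 55.8, Gbp5, which encodes a guanylate-binding protein, at 49.7 and 53.0, Rsad2, which encodes the antiviral protein viperin, at 44.9 and 54.2, and weaker peaks at Gbp2 and Oas2. Irgm1 and Gbp2 also had a promoter peak in all 4 lists. Of the 46 regions in all 4 lists 25 ranked higher with LPS and 6 lower. Of 37 stress-responsive transcription factors, 16 of 164 regions were gained (9.76%) and 1 was lost. The gained ones included Cebpd, another C/EBP gene, at 61.0 and 62.5, Bach1, a repressor sensitive to heme, at 57.8 and 56.7, and Nfil3, a basic leucine zipper gene, at 55.6 and 56.2.

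For 38 homeostatic genes of microglia, 13 of 215 regions were lost (6.05%) and 9 were gained (4.19%). Of the 159 regions in all 4 lists 84 (52.8%) ranked lower with LPS and 31 (19.5%) higher, with a median difference of -3.36 points. The lost regions belonged to 9 genes, Siglech, Gpr34, Rhob, Tmem119 and P2ry12 with those already described, the protease inhibitor gene Serpine2 at 37.6 and 45.01, Gas6, which encodes a ligand of receptors for apoptotic cells, at 19.6 and 28.1, Cx3cr1 and Cmtm6. With lists of equal length 14 of 208 regions were lost (6.73%, against 4.55% of all regions) and 7 gained. The list did not move one way, since Fcrls, a gene of an Fc receptor-like protein of microglia, had 4 gained regions, the largest at 47.3 and 31.6, and Slco2b1, a transporter gene, had 1 at 53.8 and 51.4. For 24 lineage transcription factors the shares of gained and lost regions were 6.62% and 2.94%, near those of all regions, and 42 of 99 constitutive regions ranked lower with LPS against 23 higher.

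Among 22 genes of the glucocorticoid response, 13 of 96 regions were gained (13.5%) and none was lost, 3 of them at Mt2 and 3 at Nfkbia, which also belong to other lists. A region at the promoter of the kinase gene Map3k6, gained at 47.6 and 33.9, held a GRE match within 150 bp of the summit. Such a match was rare, in 0.811% of the gained, 0.468% of the lost and 0.681% of all regions. Map3k6 also had a promoter peak in all 4 lists. Constitutive regions of this list stood higher with LPS in 15 of 56 (26.8%) and lower in 19 (33.9%), near the 31.5% and 27.7% of all such regions. For 21 genes of iron and metal handling 8 of 50 regions were gained (16.0%), at Mt2, Bach1, Fth1, Slc39a14 and Steap4, and 1 was lost at Aco1.

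For 37 genes of phagocytosis, lysosomes and lipid handling 15 of 132 regions were gained (11.4%), the largest near the protease gene Ctsl at 52.1 and 60.3 and near the osteopontin gene Spp1 at 40.8 and 44.4, and the 2 lost regions were both at C1qa. For 17 genes of antigen presentation 5 of 55 were gained (9.09%), among them the promoter of Cd80, a costimulatory ligand gene, at 32.9 and 35.8. With lists of equal length 11 of 154 regions (7.14%) were gained for the stress-responsive factors and 4 of 57 (7.02%) for the interferon genes. For the phagocytosis list it was 10 of 127 (7.87%), and 5.69% for all regions. The glucocorticoid, metal and antigen presentation lists had 12.5%, 15.2% and 9.62% gained in that setting. With the full lists, counting each region for the nearest protein-coding gene instead gave 49 of 332 gained (14.8%) for the restraining genes and 65 of 443 (14.7%) for the stress-responsive factors. For the homeostatic genes it gave 19 gained (5.78%) and 21 lost (6.38%) of 329, against 6.65% and 2.88% of all regions.

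**Figure D3:**
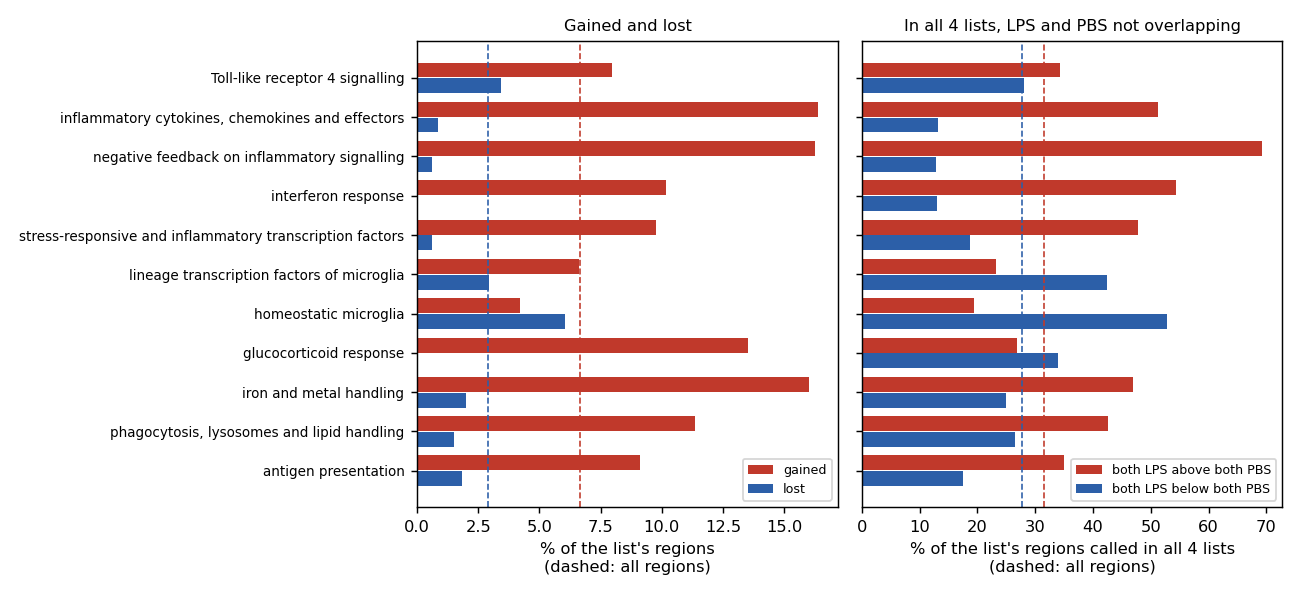
Share of each gene list's regions that were gained or lost (left) and, among its regions called in all 4 lists, share with both LPS percentiles above or below both PBS percentiles (right); dashed lines give the shares over all regions, 6.65 and 2.88% on the left and 31.5 and 27.7% on the right. Inflammatory cytokines and the restraining list, which also holds Arid5a, reach 16.4 and 16.3% gained, and homeostatic genes show 6.05% lost and 52.8% lower.

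Markers of other cell types were few in all 4 lists. Of 14 granulocyte markers, the promoters of Cebpe and Csf3r held a peak in every library, and the other 12 promoters, those of S100a8, S100a9 and Ly6g included, held none in any. Monocyte and border macrophage markers had 0, 0, 0 and 1 of 12 promoters called, in the order of the LPS and PBS libraries, astrocyte markers 1, 0, 0 and 0 of 10, neuron markers 0 of 10 in each, and endothelial and mural markers 2, 2, 1 and 1 of 10. Oligodendrocyte markers had 4 of 10 in each library (Cnp, Mbp, Mog and Pdgfra), and the only lymphocyte promoter called was that of Ccl5, with LPS. Homeostatic microglial genes had 34, 34, 34 and 35 of 38. Of the 85 regions of all these marker genes of other cells 2 were lost (2.35%), at Cebpe and Csf3r, and 8 were gained (9.41%), against 2.88% and 6.65% of all regions. The largest gained one lay in the first intron of Pecam1, an adhesion gene of endothelium and of leukocytes, at 57.8 and 57.8. The part of these cells in the results was not tested. In such pools a change in the cells captured and a change of chromatin within microglia cannot be told apart.

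Motif matches within 150 bp of the summit separated gained from lost regions most for AP-1, the motif of FOS and JUN proteins. An AP-1 match was present in 35.1% of the gained, 5.78% of the lost and 12.8% of all regions. Outside promoters the shares were 36.8% of 2510 gained, 5.97% of 1190 lost and 15.5% of 30842 regions in all. C/EBP matches were present in 22.5%, 12.2% and 14.9% outside promoters and STAT matches in 13.9%, 5.71% and 9.66%, in the same order. NF-κB matches were present in 7.37%, 3.36% and 5.98%, so the gained regions were close to all regions for the factor best known for this stimulus.

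Matches to PU.1 and MAF were more frequent in lost than in gained regions. PU.1 matches were present in 23.0% of the lost regions outside promoters, 15.5% of the gained and 22.5% of all, and MAF matches in 9.92%, 7.73% and 8.50%. Among regions called in all 4 lists, 18.6% of those that ranked higher with LPS and 6.24% of those that ranked lower held an AP-1 match, while PU.1 matches stood in 18.4% and 23.8%. Over all regions called in all 4 lists the shares were 10.8% for AP-1 and 19.9% for PU.1. The shares with a CTCF match outside promoters were 3.15% for gained, 1.01% for lost and 5.59% for all regions. MEF2 matches were rare, in 0.811% of the gained, 1.33% of the lost and 0.847% of all regions, promoters included. These shares describe the sets, and regions of a locus are not independent.

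**Figure D4:**
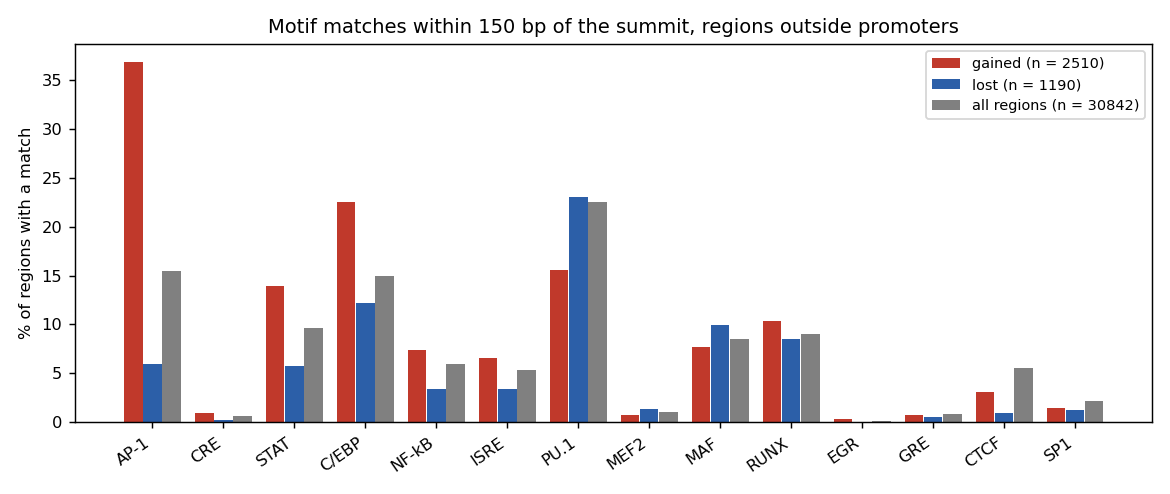
Share of regions outside promoters with at least 1 match to each of 14 motifs within 150 bp of the summit, for gained regions, lost regions and all regions of the 4 lists. The AP-1 bars stand at 36.8, 5.97 and 15.5%, and the PU.1 bars at 15.5, 23.0 and 22.5%.

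The 8 libraries of older mice were not used to choose the regions and allowed a test of their direction. The regions gained at 3 months were called in 77.6 and 46.3% of cases in the 14-month LPS libraries and in 11.1 and 31.6% in the 14-month PBS libraries. At 24 months they were called in 72.8 and 50.7% with LPS and in 47.6 and 59.4% with PBS. With these full lists the groups did not overlap at 14 months and overlapped at 24 months. When the 12 lists were brought to an equal length of 28578 peaks and the regions chosen again, the shares at 24 months were 83.2 and 55.0% with LPS and 40.3 and 43.3% with PBS, without overlap. Over both ages the share was 24.4 points higher with LPS (61.8 ± 15.6 against 37.4 ± 20.9%, SD, n = 4, exact permutation test of treatment within age, two-sided p = 0.111, adjusted p = 0.111). The difference was 15.6 points without the first 14-month PBS library and 37.7 points without the second LPS library of both ages, of which the 14-month one has the shortest list of the series.

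The regions lost at 3 months were called in 12.6 and 0.625% of cases with LPS and 64.1 and 87.8% with PBS at 14 months, and in 7.10 and 47.2% against 57.4 and 73.2% at 24 months. Every LPS library of the older mice thus called fewer of them than every PBS library. The mean share with LPS was 16.9 ± 20.8% and with PBS 70.6 ± 13.2% (SD, n = 4), a difference of -53.7 points (exact permutation p = 0.0556, adjusted p = 0.0833). The gained share minus the lost share was positive in 4 of 4 older LPS libraries and negative in 4 of 4 older PBS libraries, with a difference of 78.1 points (exact permutation p = 0.0556, adjusted p = 0.0833). The p of 0.0556 is the smallest that the 36 arrangements within age allow, so none of these tests could pass 0.05. The older LPS lists called fewer of all 44503 regions than the PBS lists (74.9 ± 9.04 against 84.2 ± 4.57%), and in lists cut to equal length the differences were 48.0 points for gained and -40.1 points for lost regions (exact permutation p = 0.0556 for each).

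The difference between LPS and PBS in the gained share was 40.6 points at 14 months and 8.21 points at 24 months, and for the lost share -69.3 and -38.1 points. These differences between the ages gave p = 0.222 and p = 0.278 in exact permutation tests. With lists of equal length, computed per age after seeing the data, the gained share differed by 68.7 points at 14 months and 27.3 points at 24 months and the lost share by -58.9 and -21.2 points (exact permutation p = 0.111 and 0.167 for the differences between the ages). By the same rule applied within an age, 909 of the 2959 regions (30.7%) were also gained at 14 months and 214 (7.23%) at 24 months, and 649 (50.7%) and 249 (19.4%) of the 1281 were also lost. Over all 44503 regions, 2.51% and 0.643% were gained and 7.09% and 3.35% were lost at 14 and 24 months. In the opposite direction, 49 regions gained at 3 months (1.66%) were lost at 14 months and 80 (2.70%) at 24 months, and no region lost at 3 months was gained at either age. At 24 months 684 of the regions gained at 3 months were called in all 4 libraries, PBS included.

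Among the genes named above, the gained regions at Pgs1, Arid5a, Socs3 and Cflar were called in 4 of 4 older LPS libraries and in 2, 2, 1 and 3 of 4 older PBS libraries. The upstream Mt2 promoter region was called in 4 of 4 and 0 of 4, and the Ptgs2 promoter in 4 of 4 and 4 of 4. The lost regions at Siglech and upstream of Gpr34 were called in 0 of 4 older LPS and 4 of 4 older PBS libraries, the pattern shown by 136 of the 1281 lost regions. The reverse pattern, 4 of 4 older LPS and 0 of 4 older PBS libraries, was shown by 131 of the 2959 gained regions.

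**Figure D5:**
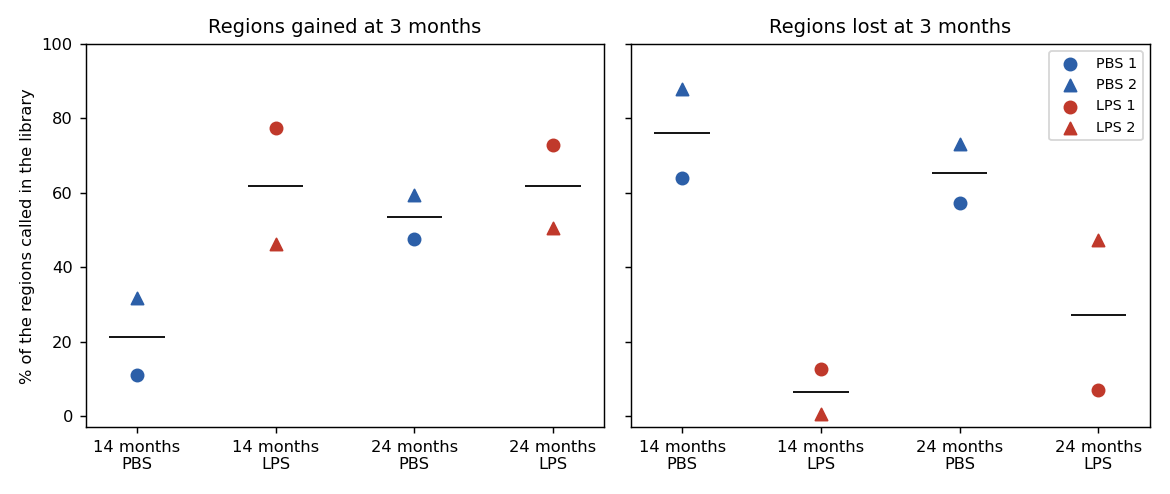
Share of the regions gained (left) and lost (right) at 3 months that were called in each library of 14- and 24-month-old mice; points are libraries and lines the means of 2. The lost regions are called in 0.625 to 47.2% of cases in the 4 LPS libraries and in 57.4 to 87.8% in the 4 PBS libraries, whereas the gained regions overlap between treatments at 24 months, which they do not with lists of equal length (83.2 and 55.0% against 40.3 and 43.3%).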

How the data were processed

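ATAC-seq libraries of microglia were sequenced on a BGISEQ-500 instrument. The authors trimmed adapters with Cutadapt 2.8, aligned reads to mm10 with Bowtie2 2.4.1, marked duplicates with SAMtools and called peaks in each library separately with Genrich, without mitochondrial reads and blacklisted regions. A shift of reads for the transposase and the SAMtools and Genrich versions were not given in the sources used here. Each deposited list gives per peak its area as a score (at least 200.002 in the 4 lists of 3-month-old mice) and the −log10 p at the summit. The lists hold no counts, so depth is unknown, no interval for counting error could be given, and the study's count test could not be run.

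Peaks were merged on 1 bp of overlap, without the 31 to 38 in each list that lay outside the assembled chromosomes. Areas were turned into percentiles within a list. Regions were given to the nearest start site of the GENCODE vM21 basic annotation, promoters lay within 1 kb, and groups joined regions within 50 kb. The sequence up to 150 bp from each summit was searched for 14 motifs, on either strand. Sequences were read from GRCm38 (mm10). Shares called in older libraries were compared by two-sided exact permutation tests of treatment within age, with Benjamini-Hochberg adjustment over the 3 measures. Python 3.11.15, numpy 2.4.6, pandas 2.3.3, scipy 1.17.1, pysam 0.24.0 and matplotlib 3.10.9 were used. The calling of gained and lost regions was checked on copies of the 3-month lists from which the peaks of picked regions had been removed.

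The regions and the 18 gene lists were chosen with earlier results of these data known. Named were the 12 gained and 12 lost regions of highest mean percentile whose nearest start site was that of a protein-coding gene within 100 kb. Also named were the 8 of each at promoters and the 10 largest differences in each direction among regions in all 4 lists. Up to 5 gained and 5 lost regions per gene list and the 12 largest groups of neighbouring regions were added. Regions described at a locus beyond these were chosen after their values were seen. Alternatives were lists of equal length, stricter peak thresholds, other overlaps and merging, other measures of peak strength, nearest protein-coding genes, and leaving out each library.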

Additional observations from a re-analysis of the deposited data

How the results depend on the processing

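With 2 libraries per group and no read counts, weak peaks decide much of the gained and lost sets, and these sets are best read at their largest members. Leaving out 1 library of 3-month-old mice gave 3377 to 4602 gained and 1726 to 2950 lost regions. Gained regions numbered 4461 without the second LPS and 4602 without the second PBS library, and lost regions 2350 without the first LPS and 2950 without the first PBS library. Regions in all 4 lists with both LPS percentiles above both PBS percentiles numbered 12235 to 14918 (14918 without the second PBS library) and those below 10312 to 13433 (13433 without the first PBS library). The numbers of gained and lost regions stayed within 1.5 times of those reported with lists of equal length, an area of at least 400, a −log10 p of at least 4, 50% of the region covered and merging across 150 bp, but few of the same regions were called with the stricter thresholds (20.5% and 26.8% of the gained, 4.29% and 13.1% of the lost). Of the named gained and lost regions, 105 of 144 and 37 of 42 were kept with lists of equal length, 49 and 16 with the minimum area, and 58 and 9 with the minimum −log10 p. Merging across 150 bp kept 137 and 37 of them, and the large Socs3 region was not among these. With area divided by width, the difference of LPS and PBS percentiles changed sign near Nos1ap (8.45 points), Slc52a3 (22.1 points) and Psma1 (10.6 points), and with the −log10 p at the summit near Slc52a3 (0.238 points), and the cause was not tested.

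In the older libraries, leaving out 1 library gave differences of 15.6 to 31.7 points for gained regions, -63.8 to -48.0 points for lost regions and 70.5 to 91.9 points for their difference. Leaving out both second LPS libraries, an alternative chosen after seeing the data, gave 37.7, -60.8 and 98.5 points (exact permutation p = 0.111 for each). With labels arranged over all 8 libraries the values were the same, -53.7 points for lost regions and 78.1 points for the difference, with exact permutation p = 0.0286 for both, and p = 0.143 for the 24.4 points of the gained regions. The labels do not say whether the replicate numbers pair the libraries. The replicate differences of LPS and PBS correlated at -0.0227, -0.233 and -0.00574 at 3, 14 and 24 months, which cannot settle whether libraries were paired. With the replicate block the differences were the same 24.4, -53.7 and 78.1 points, with exact permutation p = 0.25, 0.125 and 0.125.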
